A study of Mus musculus with 17 samples.

Results

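The genes that carry pyruvate into the mitochondrion, oxidise it and run the citric acid cycle and the malate-aspartate shuttle were followed in the mouse left ventricle after myocardial infarction (MI). The group was chosen by gene name, with earlier results of these data known, and holds 31 of the 31647 features of the count table. It contains both subunits of the mitochondrial pyruvate carrier, 5 genes of the pyruvate dehydrogenase complex, 4 of its kinases and phosphatases, 12 enzyme subunits of the cycle, 5 genes of the shuttle, the citrate carrier Slc25a1 and the enzymes Pcx and Me3. Each of the 31 genes had a feature of its own and passed the filter on low counts, which kept 12301 features.

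Libraries came from the hearts of wild-type mice, which the methods of the study describe as young adult C57BL/6J males. The 8 sham libraries were made from left ventricles of mice operated without coronary ligation, and the 9 infarct zone (IZ) libraries from the infarcted piece cut out of the left ventricle after permanent ligation of the left anterior descending artery. Both groups were sampled 5 days after surgery. The ligation was never released, so no reperfused heart is among the groups, and effects of the infarction and of comparing a dissected piece with a whole ventricle cannot be told apart. RNA was counted by massive analysis of cDNA ends (MACE), which sequences the 3′ end of each mRNA and tags molecules so that PCR copies can be removed. The study describes as many mice as there are libraries in each group, so each library was taken as 1 mouse, although the labels name no animals.

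Pyruvate, the end product of glycolysis, enters the mitochondrial matrix through a carrier made of Mpc1 and Mpc2. The pyruvate dehydrogenase complex turns it into acetyl-CoA. Pyruvate dehydrogenase kinases switch the complex off by phosphorylation, and phosphatases switch it on again. The citric acid cycle oxidises acetyl-CoA and hands electrons to the respiratory chain, while the malate-aspartate shuttle brings the reducing power of glycolysis into the mitochondrion. Heart muscle lives mainly on oxidative metabolism, and its cardiomyocytes are packed with mitochondria.

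Promoter sequence is shown for 4 genes that span the behaviour of the group: Cs, near the middle of the changes, Idh2, with the largest fall, Got1, with the largest fall in the shuttle, and Slc25a1, the gene that rose. Each line gives the 250 bases before the RefSeq transcription start on GRCm38.p6, 5′ to 3′ on the strand of the gene. Capitals mark the letters AAGGTCA, a site of estrogen-related receptors (ERR), TGCGCA, the core of the NRF1 site, and CCAAT, the box bound by NFY, on either strand.
Cs (chr10:128337477-128337726, plus strand): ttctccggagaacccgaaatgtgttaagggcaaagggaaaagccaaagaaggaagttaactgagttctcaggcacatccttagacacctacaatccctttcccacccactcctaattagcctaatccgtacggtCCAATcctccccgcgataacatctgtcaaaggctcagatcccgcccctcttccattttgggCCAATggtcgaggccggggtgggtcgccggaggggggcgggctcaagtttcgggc
Idh2 (chr7:80115351-80115600, minus strand): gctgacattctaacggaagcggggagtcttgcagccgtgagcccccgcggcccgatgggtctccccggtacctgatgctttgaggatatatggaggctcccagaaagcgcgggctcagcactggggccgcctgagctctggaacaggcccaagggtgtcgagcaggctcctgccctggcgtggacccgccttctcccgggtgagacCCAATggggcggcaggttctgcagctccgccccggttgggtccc
Got1 (chr19:43524606-43524855, minus strand): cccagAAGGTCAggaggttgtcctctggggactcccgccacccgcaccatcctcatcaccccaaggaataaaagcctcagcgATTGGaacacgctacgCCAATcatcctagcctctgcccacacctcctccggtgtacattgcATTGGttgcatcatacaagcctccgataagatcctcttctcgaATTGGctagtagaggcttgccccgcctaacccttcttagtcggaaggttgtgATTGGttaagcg
Slc25a1 (chr16:17928220-17928469, minus strand): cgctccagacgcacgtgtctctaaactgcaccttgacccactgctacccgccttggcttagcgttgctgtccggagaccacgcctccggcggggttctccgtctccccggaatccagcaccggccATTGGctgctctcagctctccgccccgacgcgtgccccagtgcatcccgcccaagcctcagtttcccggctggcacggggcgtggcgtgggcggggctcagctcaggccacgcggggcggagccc
Over the whole RefSeq window, which adds 50 bases after the start, 29 of the 31 genes had at least 1 promoter, with 38 windows in all. CCAAT stood in 63.2% of these windows and in 37.4% of all 32851 windows of the reference. AAGGTCA stood in 5.26% against 4.72%, in Got1 and Ogdh. TGCGCA stood in 15.8% against 7.76%, in Dld, Got2, Mdh2, Mpc2 and Ogdh. These shares are descriptions of letters in a window, and windows of 1 gene overlap.

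The libraries held between 1237675 and 4738307 counts. Levels are given below as CPM, counts scaled to a common library size after trimmed-mean (TMM) scaling. The summed level of 12 cardiomyocyte markers fell from 82780 ± 5960 CPM (SD, n = 8) in sham to 8745 ± 9806 CPM in IZ (n = 9), and all 12, Myh6, Tnnt2 and Actn2 among them, were called lower. IZ replicate 1 stood apart with a marker sum of 34510 CPM, while the other IZ libraries lay between 3423 and 8101 CPM. Markers of other cells moved in the opposite direction or less. Higher in IZ were 7 of 8 fibroblast markers, 8 of 8 monocyte and macrophage markers and 3 of 3 tested neutrophil markers. Of 7 endothelial markers 3 were lower, and of 6 smooth muscle and pericyte markers 4 were higher and 2 lower. No lymphocyte or adipocyte marker passed the filter. Over all genes tested, 36.3% were called higher and 33.1% lower. In bulk tissue, fewer cells of a type and less RNA per cell cannot be told apart. How far the marker shifts enter the values of single genes was not tested except where a marker-based scale is given.

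In IZ, 30 of the 31 genes were lower and Slc25a1 was higher (edgeR quasi-likelihood test, Benjamini-Hochberg adjusted over all genes, largest adjusted p = 4.65e-05). Over all genes tested, 69.5% were called, 33.1% lower and 36.3% higher, so that 52.3% of the calls were higher, or 85.8% when libraries were scaled by their total counts alone. The median log2 fold change of the 31 genes was -2.68, a 6.41-fold fall, beside a median of 0.05 over all genes tested. Under scaling by total counts alone, where the median of all genes shifted to 1.14, the median of the group was -1.67 and 28 of its genes stayed lower by the test. The fall was at least 4-fold in 27 genes, against 7.89% of all genes. In 29 genes every IZ library lay below every sham library, which held for 16.5% of all genes, and the exceptions were Pdk4 and Slc25a1.

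**Figure D1:**
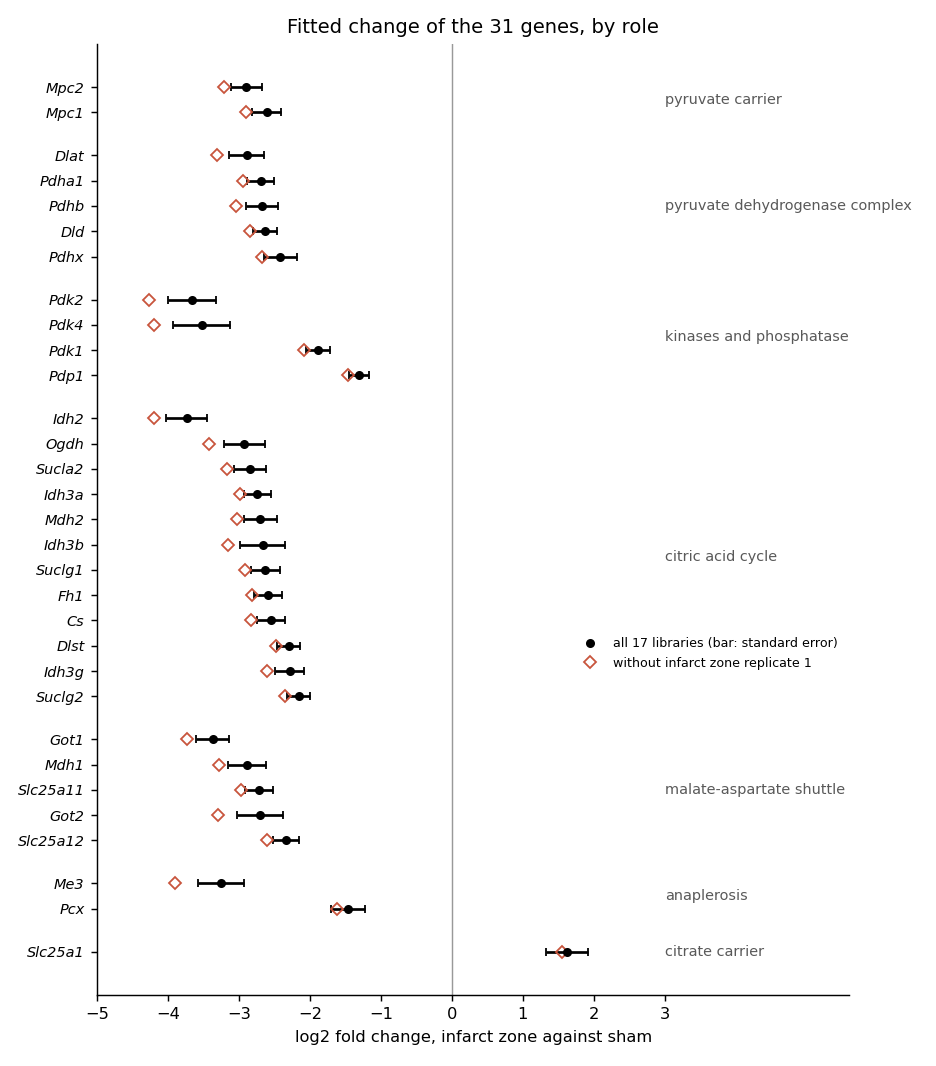
Fitted log2 fold change of IZ against sham for each of the 31 genes, grouped by role. Black points with bars give the estimate and its standard error over 8 sham and 9 IZ libraries, and open diamonds the estimate without IZ replicate 1; values run from -3.74 for Idh2 to 1.62 for Slc25a1.

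The summed level of the 31 genes was 17620 ± 1358 CPM in sham (n = 8) and 2511 ± 1441 CPM in IZ (n = 9). IZ replicate 1 had 6304 CPM, and none of the other IZ libraries was above 2343 CPM. For 30 of the 31 genes replicate 1 was the highest IZ library. Leaving Slc25a1 aside, its levels were 22.8% to 68.1% of the sham mean (median over 30 genes 38.0%), while the medians of the other 8 IZ libraries were 5.48% to 38.0% (median 12.8%). Without replicate 1 the median log2 fold change was -2.98, and the same counts of 30 lower and 1 higher were found. Within sham, the libraries varied little for most of the group, with a median coefficient of variation of 12.7%, from 3.99% for Idh3g to 43.7% for Pdk4 and 69.5% for Slc25a1. For some genes, however, sham replicates 1 to 3 lay apart from replicates 4 to 8. Mdh1 had 1362–1561 CPM in the first set and 1968–2191 CPM in the second, and Idh3b 313–413 and 569–709 CPM. Got1 went the other way (678–754 and 609–676 CPM), and Idh3g showed no such split. What sets these libraries apart was not tested.

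**Figure D2:**
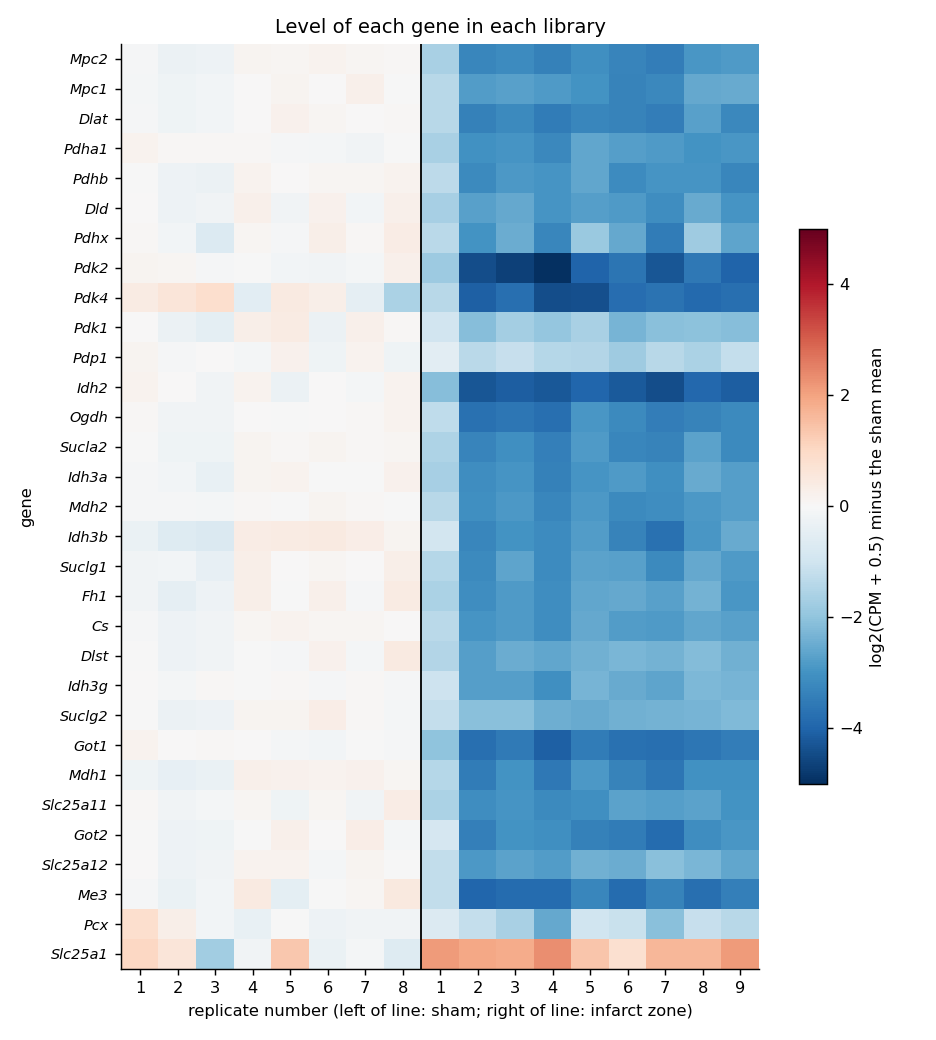
Level of each of the 31 genes (vertical axis) in each library (horizontal axis, 8 sham libraries left and 9 IZ libraries right of the line), as log2(CPM + 0.5) minus the sham mean of the gene. All genes but Slc25a1 are lower in IZ, and the first IZ column is paler than the other 8 for 30 of the 31 genes.

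Both subunits of the pyruvate carrier were lower in IZ. Mpc1 ranged over 312–439.9 CPM in sham (median 367) and 35.2–139 CPM in IZ (median 52.2), and fell by 2.61 ± 0.21 on the log2 scale (SE, adjusted p = 1.81e-10). Mpc2 ranged over 595–828 CPM in sham (median 768) and 65.6–239 CPM in IZ (median 81.9), and fell by 2.90 ± 0.22 (adjusted p = 9.69e-11). For both subunits every IZ library lay below every sham library, as for 16.5% of all genes tested. The fall was larger for Mpc2 than for Mpc1. Their ratio within a library does not depend on scaling: the log2 ratio of Mpc1 to Mpc2 was -0.999 ± 0.117 in sham and -0.71 ± 0.20 in IZ, a difference of 0.29 (exact permutation test, p = 0.00346, adjusted over 20 gene pairs 0.00494), with 7 of 9 IZ libraries above every sham library. A pseudogene, Mpc1-ps, shares 256 bases of the Mpc1 3′ end at 100% identity, but it carried a mean of 2.59 counts a library against 421 for Mpc1.

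The pyruvate dehydrogenase complex is built from 3 catalytic enzymes, E1 (Pdha1 and Pdhb), E2 (Dlat) and E3 (Dld), and a binding protein (Pdhx). Its 5 genes fell within a narrow band, from -2.42 ± 0.23 for Pdhx to -2.89 ± 0.25 for Dlat on the log2 scale (largest adjusted p = 3.84e-09). Pdha1, the X-linked alpha subunit of E1, had 812–1038 CPM in sham (median 919) and 98.4–295 CPM in IZ (median 122). Pdhb, its beta partner, had 352–484 CPM in sham (median 448) and 44.6–174 CPM in IZ (median 55.3). Every IZ library lay below every sham library for all 5, as for 16.5% of all genes tested. The ratio of Pdha1 to Pdhb showed no difference past the threshold: its log2 value was 1.09 ± 0.25 in sham and 1.13 ± 0.24 in IZ (difference 0.04, exact p = 0.741), and 2 IZ libraries lay above and 1 below the whole sham range. Dld serves the 2-oxoglutarate dehydrogenase complex and other complexes too. It fell less than Dlat, with the log2 ratio of Dld to Dlat at 0.35 ± 0.21 in sham and 0.73 ± 0.29 in IZ (difference 0.38, exact p = 0.00967, adjusted 0.0124), or a difference of 0.46 without IZ replicate 1. Parts of the Dld 3′ end are repeats that other transcripts share, so its counts and this ratio are less certain.

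The kinases did not all fall by the same amount. Pdk2 (chr11:95026258-95041354, minus strand, mm10), the widespread isoform, had 310.2–413 CPM in sham (median 339) and 10.1–98.6 CPM in IZ (median 20.9). It fell by 3.66 ± 0.34 on the log2 scale (adjusted p = 1.84e-09), and its second highest IZ library had 28.9 CPM. Pdk4 (chr6:5483351-5496309, minus strand), the isoform induced by fasting and fatty acids, had 72.8–397 CPM in sham (median 282) and 9.90–83.7 CPM in IZ (median 15.2). The spread of Pdk4 within sham was wide, with 72.8 CPM in sham replicate 8 and 154 and 162 CPM in replicates 4 and 7, so that IZ replicate 1 lay above the lowest sham library and the groups overlapped. Pdk4 fell by 3.53 ± 0.40 (adjusted p = 4.86e-08), and 8 of 9 IZ libraries were below every sham library. Pdk1, a target of the hypoxia response, had 49.9–92.6 CPM in sham (median 72.0) and 13.4–35.9 CPM in IZ (median 16.5), and fell by 1.89 ± 0.17 (adjusted p = 1.74e-09).

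Pdk3, the fourth kinase, is not in the group of 31 but stands in a pair with Pdk2. It had 1.09–3.89 CPM in sham, from 2 to 7 counts, and 6.80–19.3 CPM in IZ, and rose by 2.53 ± 0.28 (adjusted p = 3.96e-08), the largest rise among the other genes of these pathways. Every IZ library lay above every sham library, as for 16.6% of all genes.

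Ratios between kinases were compared within libraries. Pdk1 against Pdk2 had a log2 ratio that ranged from -2.74 to -1.77 in sham and from -1.45 to 0.81 in IZ, so that the groups did not overlap (difference 2.07, exact p = 8.23e-05, adjusted 0.000329). That of Pdk3 to Pdk2 was -7.17 ± 0.66 in sham and -0.79 ± 1.14 in IZ (difference 6.38, exact p = 4.11e-05, the smallest this exact test can give). Pdk2 therefore fell more than Pdk1. That Pdk3 moved the other way rests on its scaled level given above, since a ratio cannot show it. Pdk4 fell more than Pdk1, with a log2 ratio of 1.67 ± 0.997 in sham and -0.15 ± 0.67 in IZ (difference -1.81, exact p = 0.000946, adjusted 0.00172). Between Pdk4 and Pdk2 no difference passed the threshold (-0.65 ± 0.88 in sham, -0.39 ± 0.45 in IZ, exact p = 0.490), and the sign of the difference turned when medians replaced means or when sham replicate 8 was left out (-0.015 and -0.0064). Relative to Pdha1, its substrate, Pdk4 was 0.95 lower in IZ on the log2 scale (exact p = 0.0121, adjusted 0.0143).

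Pdp1, the calcium-sensitive phosphatase that reactivates the complex, changed least among the genes that fell. It had 31.1–43.0 CPM in sham (median 36.2) and 10.2–25.0 CPM in IZ (median 13.6), and fell by 1.31 ± 0.15 (adjusted p = 3.90e-08). Under scaling by total counts alone its log2 fold change was -0.24 and no longer passed (adjusted p = 0.0918). Pdp2, the second phosphatase and no member of the group, fell by 2.49 ± 0.27, from 16.1–50.1 CPM to 2.18–16.3 CPM. Pdp1 against Pdp2, as a log2 ratio, rose from 0.14 ± 0.40 to 1.32 ± 0.50 (exact p = 0.000206, adjusted 0.000411).

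**Figure D3:**
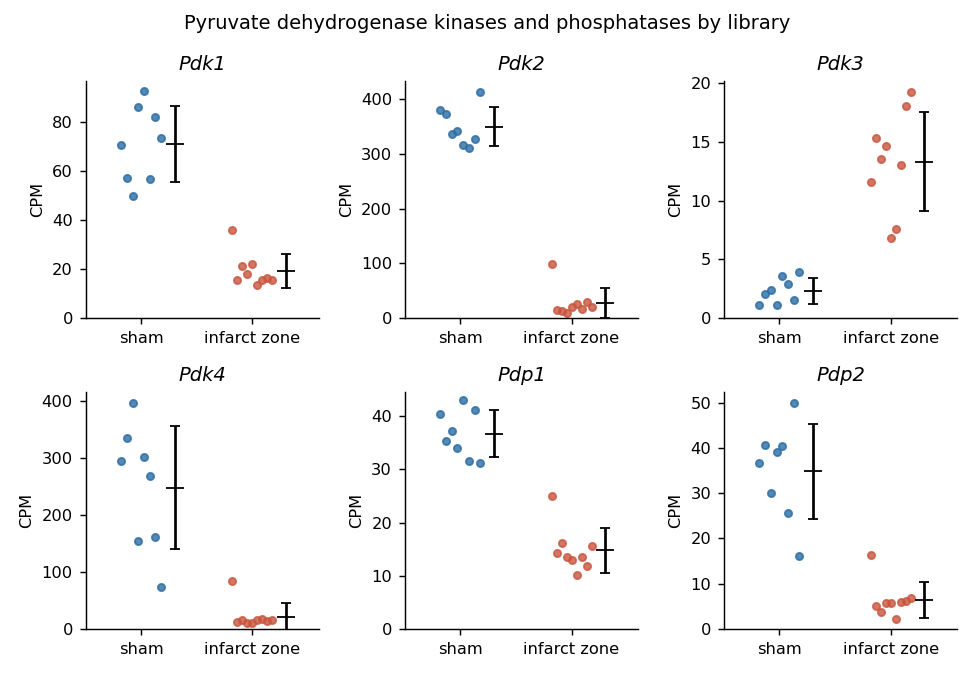
CPM of the 4 pyruvate dehydrogenase kinases and both phosphatases in each of 8 sham (blue) and 9 IZ (red) libraries, with mean and SD in black; each panel has its own axis from 0. Pdk1, Pdk2, Pdk4, Pdp1 and Pdp2 are lower in IZ, with the highest IZ point in each being replicate 1, while Pdk3 is higher in all 9 IZ libraries (6.80–19.3 CPM against 1.09–3.89 CPM).

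All 12 cycle subunits of the group were lower in IZ, with no overlap between the groups. Over all genes tested, 33.1% were called lower, and 16.5% had every IZ library below every sham library. Cs (chr10:128337734-128362479, plus strand), citrate synthase and the entry step of the cycle, had 698–946 CPM in sham (median 869.6) and 96.8–325 CPM in IZ (median 122), and fell by 2.55 ± 0.20 (adjusted p = 1.57e-10).

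Isocitrate is oxidised by the NAD-linked enzyme Idh3 (Idh3a, Idh3b and Idh3g) or by the NADP-linked mitochondrial enzyme Idh2. Idh2 (chr7:80094846-80115392, minus strand) had 1539–2168 CPM in sham (median 1949) and 88.9–438 CPM in IZ (median 109). Its fall of 3.74 ± 0.29 was the largest of the 31 (adjusted p = 1.18e-10), and all IZ libraries other than replicate 1 were at or below 125 CPM. Idh3a, the catalytic alpha subunit, had 395–589.9 CPM in sham (median 504) and 47.7–159 CPM in IZ (median 65.7), and fell by 2.74 ± 0.19. Idh3g fell by 2.29 ± 0.21, and Idh3b by 2.66 ± 0.32, with a wider sham spread for Idh3b of 313–709 CPM. Idh3b overlaps Nop56 on the opposite strand, which carried a mean of 63 counts a library against 619 for Idh3b; whether counting used the strand is not given in the sources used here.

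The difference between Idh2 and Idh3a was seen within libraries. Their log2 ratio was 1.92 ± 0.23 in sham and 0.79 ± 0.31 in IZ (difference -1.12, exact p = 0.000123, adjusted 0.000366), and 8 of 9 IZ libraries lay below every sham library. Idh1, the cytosolic NADP-linked isoenzyme and no member of the group, rose by 0.47 ± 0.14 (adjusted p = 0.00444), from 26.7–49.6 CPM to 39.9–65.8 CPM. Idh1 against Idh2 had a log2 ratio that ranged from -6.33 to -5.10 in sham and from -3.36 to -0.57 in IZ, a difference of 4.42 (exact p = 8.23e-05, adjusted 0.000329). The lowest IZ ratio was that of replicate 1.

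The 2-oxoglutarate dehydrogenase complex shares its E3 with pyruvate dehydrogenase and has E1 and E2 of its own, Ogdh and Dlst. Ogdh had 1254–1596 CPM in sham (median 1446) and 104–595 CPM in IZ (median 142), and fell by 2.93 ± 0.29 (adjusted p = 7.26e-09). Dlst had 381–628 CPM in sham (median 450) and 67.6–165 CPM in IZ (median 87.2), and fell by 2.30 ± 0.16 (adjusted p = 2.45e-11). Succinyl-CoA ligase pairs the alpha subunit Suclg1 with an ATP-forming beta subunit, Sucla2, or a GTP-forming one, Suclg2. Suclg1 fell by 2.63 ± 0.21 from 545 ± 87.1 to 88.1 ± 43.0 CPM.

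Sucla2 had 467–595 CPM in sham (median 566) and 50.3–186 CPM in IZ (median 58.4), and fell by 2.84 ± 0.22. Suclg2 had 54.3–83.8 CPM in sham (median 68.6) and 11.3–29.0 CPM in IZ (median 12.9), and fell by 2.16 ± 0.16. The ATP-forming subunit thus fell more than its GTP-forming counterpart. In log2 terms the ratio of Sucla2 to Suclg2 was 3.01 ± 0.11 in sham and 2.25 ± 0.35 in IZ (difference -0.76, exact p = 0.000164, adjusted 0.000366), with all 9 IZ libraries below every sham library. The Suclg2 3′ end matches Gm15163 over 500 bases at 99% identity, and that feature carried a mean of 0.47 counts a library.

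Fumarase, Fh1, had 403–723 CPM in sham (median 528) and 62.4–184 CPM in IZ (median 83.5), and fell by 2.59 ± 0.20 (adjusted p = 8.69e-11). Mdh2, the malate dehydrogenase of the matrix, was held within 1759–2050.0 CPM in sham (median 1860.0) and had 197–720.0 CPM in IZ (median 256), and fell by 2.70 ± 0.23 (adjusted p = 4.39e-10). The 4 subunits of succinate dehydrogenase, which are no members of the group and are named after their values were seen, fell by 2.25 ± 0.20 (Sdhc) to 2.97 ± 0.24 (Sdhb).

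The malate-aspartate shuttle uses a cytosolic and a mitochondrial malate dehydrogenase (Mdh1, Mdh2), a cytosolic and a mitochondrial aspartate aminotransferase (Got1, Got2) and carriers for 2-oxoglutarate (Slc25a11) and for aspartate and glutamate (Slc25a12, Slc25a13). Got1 (chr19:43499752-43524605, minus strand) had 609–754 CPM in sham (median 666) and 39.2–167 CPM in IZ (median 54.2), and its fall of 3.37 ± 0.23 (adjusted p = 2.01e-11) was larger than that of any other shuttle gene in the group. Got2 had 356–538 CPM in sham (median 416) and 28.7–235 CPM in IZ (median 48.5), and fell by 2.71 ± 0.32 (adjusted p = 9.84e-08). IZ replicate 1 held 54.9% of the sham mean of Got2 and the other IZ libraries a median of 10.4%, so that the fall of Got2 was 3.30 without it. The log2 ratio of Got1 to Got2 was 0.66 ± 0.26 in sham and 0.17 ± 0.40 in IZ (difference -0.49, exact p = 0.00991, adjusted 0.0124).

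Mdh1 had 1362–2191 CPM in sham (median 1999) and 150.2–684 CPM in IZ (median 222), and fell by 2.89 ± 0.27 (adjusted p = 2.19e-09). Against Mdh2 the difference was slight: the log2 ratio was -0.04 ± 0.23 in sham and -0.26 ± 0.16 in IZ (difference -0.22, exact p = 0.0393, adjusted 0.0437). It no longer passed when any one of sham replicates 4 to 8 or of IZ replicates 2, 4 and 6 to 9 was left out (differences of -0.19 to -0.23, adjusted p from 0.0501 to 0.0867). Sham replicates 1 to 3, at -0.22, -0.40 and -0.30, lay within the IZ range of -0.54 to -0.05. Only sham replicates 4 to 8, at -0.01 to 0.19, lay above it.

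Slc25a11 had 559–842 CPM in sham (median 636) and 69.7–212 CPM in IZ (median 82.2), and fell by 2.71 ± 0.20 (adjusted p = 4.23e-11). Rnf167 on the opposite strand overlaps it, with a mean of 120 counts a library against 709. Slc25a12 had 124–168 CPM in sham (median 147) and 19.9–62.0 CPM in IZ (median 26.1), and fell by 2.34 ± 0.18 (adjusted p = 1.22e-10). Slc25a13, the other aspartate carrier and no member of the group, fell by 3.04 ± 0.30. The log2 ratio of Slc25a12 to Slc25a13 was 0.55 ± 0.21 in sham and 1.45 ± 0.63 in IZ (exact p = 0.00115, adjusted 0.00192), and that of Slc25a12 to Slc25a11 rose by 0.39 (exact p = 0.00189, adjusted 0.00291).

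Anaplerotic enzymes refill the cycle. Pcx (pyruvate carboxylase, which makes oxaloacetate from pyruvate) was low in both groups, with 13.4–32.3 CPM in sham (median 15.8) and 2.57–10.9 CPM in IZ (median 7.51), and fell by 1.47 ± 0.24 (adjusted p = 8.31e-06). It shares its locus with Lrfn4 on the opposite strand, which carried a mean of 27.8 counts a library against 27.4 for Pcx, so that reads from the other strand could enter its value. Under scaling by total counts alone the log2 fold change of Pcx was -0.40 and did not pass (adjusted p = 0.103). The log2 ratio of Pcx to Pdha1, the gene at the other exit of pyruvate, was -5.67 ± 0.34 in sham and -4.38 ± 0.49 in IZ (difference 1.29, exact p = 0.000164, adjusted 0.000366).

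Me3, the NADP-linked malic enzyme of mitochondria, had 50.2–97.8 CPM in sham (median 68.6) and 4.04–29.7 CPM in IZ (median 4.65), and fell by 3.25 ± 0.32 (adjusted p = 6.29e-09). Parts of its 3′ ends are repeats found in many transcripts, so its counts are less certain. Its relatives moved otherwise. Cytosolic Me1 fell by 1.56 ± 0.14, and mitochondrial NAD-linked Me2 rose by 1.10 ± 0.23 (adjusted p = 0.000161) from 2.71–10.04 CPM to 8.34–20.6 CPM. Me2 had few counts, from 4 to 20 in the sham libraries. The log2 ratio of Me1 to Me3 rose by 1.88 (exact p = 0.000164, adjusted 0.000366), and that of Me2 to Me3 by 4.56 (exact p = 8.23e-05, adjusted 0.000329), from -3.36 ± 0.58 to 1.198 ± 1.26.

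Slc25a1 (chr16:17925223-17928219, minus strand), the carrier that exports citrate to the cytosol for lipid synthesis, was the gene of the group that rose. It had few counts: sham libraries held 1 to 20 counts, or 0.79–10.4 CPM (median 3.41), and IZ libraries 6.90–20.8 CPM (median 14.8). The rise was 1.62 ± 0.30 on the log2 scale (adjusted p = 4.65e-05), with 8 of 9 IZ libraries above every sham library. Against Cs, which makes the citrate it carries, the groups did not overlap: the log2 ratio was -7.69 ± 0.997 in sham and -3.24 ± 0.64 in IZ (difference 4.44, exact p = 4.11e-05, adjusted 0.000329). Acly, which splits exported citrate into acetyl-CoA and is named after its values were seen, rose by 0.57 ± 0.14 (adjusted p = 0.000945).

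**Figure D4:**
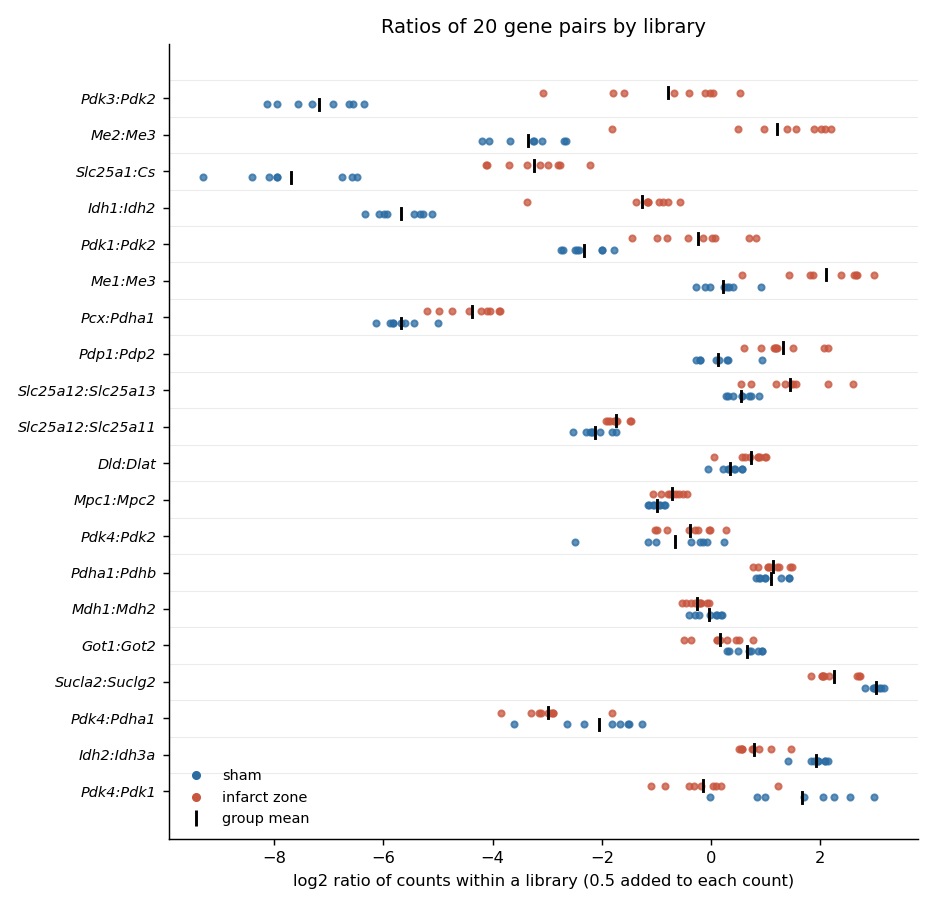
Log2 ratio of counts of 20 gene pairs within each library, with 0.5 added to each count (horizontal axis); blue points are the 8 sham and red points the 9 IZ libraries, and black ticks the group means. Ratios of Pdk3 to Pdk2, Me2 to Me3, Slc25a1 to Cs, Idh1 to Idh2 and Pdk1 to Pdk2 lie higher in all IZ libraries, and the ratio of Sucla2 to Suclg2 lies lower in all of them.

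Of the 20 pairs, 18 differed between the groups after adjustment over the pairs, the exceptions being Pdha1 to Pdhb and Pdk4 to Pdk2. Other gene pairs were not examined, so no share over all pairs stands beside this count. Of all genes tested, 69.5% were called, and the pairs were chosen with earlier results of these data known. Some pairs, such as Pdk3 to Pdk2, set a gene that rose against a gene that fell. A ratio compares changes of 2 genes only, and its level depends on how each 3′ end is captured.

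The other genes of the same pathways comprised 42 names, of which 41 had a feature and 33 passed the filter. Of these 33, 23 were lower, 5 higher and 5 not past the threshold, beside 33.1% lower and 36.3% higher over all genes tested. The lowest was Ldhd, a mitochondrial D-lactate dehydrogenase, which fell by 3.99 ± 0.28 from 29.0–43.1 CPM to 0.57–8.70 CPM. Znrf1 overlaps Ldhd on the opposite strand, with a mean of 144 counts a library against 35.5, so reads from the other strand could enter its value. The 5 that rose were Pdk3, Pck2, Me2, Acly and Idh1. Pck2, the mitochondrial phosphoenolpyruvate carboxykinase, had 6.73–16.6 CPM in sham and 18.1–49.0 CPM in IZ, a rise of 1.68 ± 0.19 (adjusted p = 4.67e-08), and is named after its values were seen. Its 3′ end also holds such shared repeats, so its counts are less certain. Under scaling by total counts alone 18 of the 33 were lower and 10 higher. On that scale 1524 of all 12301 genes tested were lower and 9203 higher.

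Relative to the cardiomyocyte markers the picture changed. With the summed counts of the 12 markers as library size, 25 of the 31 genes were higher in IZ, none was lower and 6 did not pass the threshold (edgeR, adjusted over all genes). On this scale 97.5% of all genes tested were called, 97.0% higher and 0.528% lower, so a higher call sets few genes apart, and the median log2 fold change was 0.98 for the group and 3.92 over all genes. The 6 that did not pass were Pdk2 (-0.29 ± 0.30), Idh2 (-0.22 ± 0.28), Pdk4 (-0.20 ± 0.34), Me3 (0.16 ± 0.34), Got1 (0.21 ± 0.29) and Ogdh (0.53 ± 0.28). These are also the 6 genes with the largest falls in the first comparison, with which this scale shares all its libraries. Of the genes that were higher, Slc25a1 (5.47 ± 0.49), Pdp1 (2.45 ± 0.36), Pcx (2.23 ± 0.38) and Pdk1 (1.85 ± 0.34) rose most.

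Several of these results lay near the threshold and changed side when single libraries were left out or the marker reference was changed. Ogdh passed without IZ replicate 1 (0.58, adjusted p = 0.00153). Dlat, at 0.65 ± 0.30 (adjusted p = 0.0358), no longer passed when any one of sham replicates 1 to 4 or 6 to 8 or of IZ replicates 2, 3, 4, 7 and 8 was left out (0.58 to 0.65), nor did Mdh1 without sham replicate 1, 2 or 3 or IZ replicate 3 (0.59 to 0.62), nor Got2 without IZ replicate 4 (0.56). With the geometric mean of the markers in place of their sum, Dlat (0.55) and Mdh1 (0.55) did not pass. The summed level of the 31 genes per summed marker level was 0.213 ± 0.0122 in sham and 0.368 ± 0.104 in IZ, and IZ replicate 1, at 0.183, lay below all sham libraries.

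**Figure D5:**
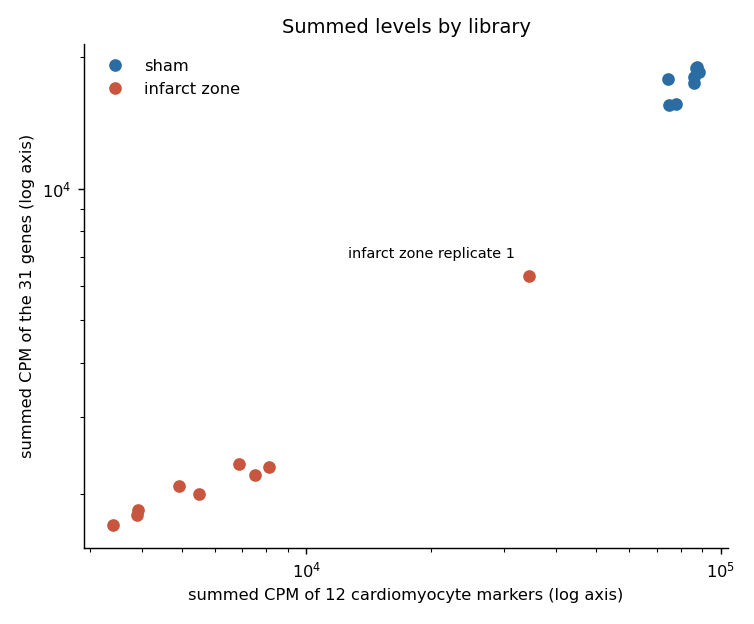
Summed CPM of the 31 genes (vertical log axis) against the summed CPM of 12 cardiomyocyte markers (horizontal log axis) in each library, sham in blue and IZ in red. IZ replicate 1, with 34510 CPM of markers and 6304 CPM of the 31 genes, lies between the 8 sham libraries and the other 8 IZ libraries.

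Genes of complex I and of fatty acid oxidation were followed beside the group. All 36 nuclear subunits of complex I were lower, with a median of -2.53. So were all 17 measured genes of fatty acid oxidation, with a median of -3.04. Over all genes tested, 33.1% were called lower. The summed level of the 31 genes was 0.655 ± 0.0432 of that of complex I in sham and 0.510 ± 0.0415 in IZ. Against fatty acid oxidation the ratio was 1.76 ± 0.0938 in sham and 2.13 ± 0.0982 in IZ. The differences between these sets were not tested. Mitochondrially encoded RNA, for comparison, made up 27.5% ± 3.08 of counts in sham and 6.95% ± 4.76 in IZ, with 19.5% in IZ replicate 1.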

How the data were processed

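MACE libraries with molecular tags were made from total RNA of 8 sham left ventricles and 9 infarct zones. The deposited values are raw counts per gene: per the labels and the study's methods, the authors trimmed the reads, mapped them to mm10 (Bowtie2 in the processing notes), removed PCR copies and counted with HTSeq. Whether counting used the strand is not given in the sources used here. The table held 31647 features, 35 of them merged from overlapping genes (on average 0.116% of counts in sham and 0.190% in IZ); 31521 identifiers matched the name table.

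Groups came from the labels. Counts were filtered (filterByExpr, minimum count 10), TMM-scaled and tested with edgeR 4.0.16 (glmQLFit, glmQLFTest, R 4.3.3), adjusted by Benjamini-Hochberg over 12301 genes at 0.05. A second fit used the summed counts of 12 cardiomyocyte markers as library size. Ratios of gene pairs (0.5 added to each count) were compared by a two-sided exact permutation test over libraries, adjusted over 20 pairs. Promoters came from RefSeq (GRCm38.p6) and gene positions from GENCODE on mm10. The 3′ ends of 500 bases were searched with BLAST 2.17.0 for matches of at least 100 bases and 95% identity.

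The text names all 31 members, the other pathway genes that stand in a pair, and the highest and lowest other pathway genes that were called. It also names further pathway genes, which were chosen after their values were seen. Some results on other pathway genes are not reported here. The members, lists and pairs were chosen with earlier results of these data known. On simulated counts for the sham against IZ comparison (12301 genes, 200 changed by 1 on the log2 scale), 88.5% of changed genes were recovered and 4.32% of calls were unchanged genes. The simulation changed as many genes up as down, gave all genes the same dispersion and held no outlying library. Its rates need not hold for the data, where 69.5% of genes were called. Alternatives were other scalings, DESeq2 1.42.0, other filters, thinning to the smallest total, other marker references, medians, a replicate block and leaving out each library. No pair of libraries agreed within counting noise (chi-square per degree of freedom 2.38 to 312 over 136 pairs).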

Additional observations from a re-analysis of the deposited data

Results flagged for a closer look

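A highest or lowest library was set far apart from the rest of its group, by Dixon's test at the 95% level, in 42 of 136 sets of values examined, where chance alone would give about 6.8 (1 in 20). In 34 of them it was the CPM of IZ replicate 1, which was higher than in the other 8 IZ libraries.

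For the pyruvate carrier this library had 138.8 CPM of Mpc1 and 239.2 CPM of Mpc2. For the pyruvate dehydrogenase complex it had 295.0 CPM of Pdha1, 173.9 CPM of Pdhb, 127.6 CPM of Dlat and 132.6 CPM of Dld, and for its regulators 35.88 CPM of Pdk1, 98.57 CPM of Pdk2, 83.71 CPM of Pdk4, 25.0 CPM of Pdp1 and 16.31 CPM of Pdp2. Among cycle enzymes it had 325.1 CPM of Cs, 437.8 CPM of Idh2, 159.1 CPM of Idh3a, 274.7 CPM of Idh3b, 221.1 CPM of Idh3g and 594.7 CPM of Ogdh. It also had 165.2 CPM of Dlst, 186.3 CPM of Sucla2, 197.9 CPM of Suclg1, 28.99 CPM of Suclg2, 319.3 CPM of Sdha, 480.2 CPM of Sdhb, 269.6 CPM of Sdhc, 183.7 CPM of Fh1 and 720.0 CPM of Mdh2. Among shuttle genes it had 684.2 CPM of Mdh1, 167.4 CPM of Got1, 234.8 CPM of Got2, 211.6 CPM of Slc25a11, 61.97 CPM of Slc25a12 and 42.4 CPM of Slc25a13. The remaining genes were Me3 with 29.71 CPM and Ldhd with 8.697 CPM.

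The same library stood apart in 4 ratios. Its log2 ratio was the lowest of the IZ libraries for Dld to Dlat (0.05619), Idh1 to Idh2 (-3.362) and Me2 to Me3 (-1.812), and the highest for Pdk4 to Pdha1 (-1.815).

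Other libraries stood apart for 1 value each: sham replicate 1 with 32.29 CPM of Pcx, sham replicate 3 with 45.13 CPM of Acly, IZ replicate 5 with 16.99 CPM of Gpd2, each the highest of its group, and sham replicate 5 with the lowest sham log2 ratio of Idh2 to Idh3a (1.416).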

How the results depend on the processing

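Over the 31 genes, 802 of 804 log2 fold changes under the alternatives kept their direction and their side of the threshold; the other 2 were Pdp1 and Pcx with total counts alone. With total counts alone the median of the group was -1.67 and 10 other pathway genes were higher in place of 5 and 18 lower in place of 23, while Sdhaf2 (0.18) and Lipt2 (0.37) turned upward. With a mean of at least 50 counts, 0 members were higher in place of 1, since Slc25a1 was not tested, and 13 other pathway genes were lower in place of 23, since fewer were tested. Genes near 0 changed sign, and the cause was not tested: Slc25a10 with thinned libraries (-0.0071), with the replicate block (-0.030) and without single libraries (-0.024 to 0.099), Gpd2 with DESeq2 (-0.0050) and without single libraries (-0.085 to 0.112), and Glud1 without single libraries (-0.021 to 0.109). The pairs Pdk4 to Pdk2 (-0.015 with medians, -0.0064 to 0.385 without single libraries) and Pdha1 to Pdhb (-0.0042 to 0.0886) did so too. Leaving out single libraries gave 23 to 26 members higher relative to the markers, and 17 or 18 pairs. Between sham and IZ libraries with the same number, deviations from the group mean had correlations from -0.216 to 0.128. Libraries with unlike numbers were not compared, so whether the number marks a pairing was not tested. With the replicate block 8079 genes were called in place of 8544, 30 members stayed lower, and 19 in place of 25 were higher relative to the markers. Depth limits, among others, Slc25a1, Pcx, Pdk3 and Me2, whose sham libraries held from 1 to 59 counts, and Ldhd, whose IZ libraries held from 1 to 24.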

Other observations

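Genes of the same pathways that the text above does not describe showed the following, and those named here were chosen after their values were seen. The 4 assembly factors of succinate dehydrogenase, Sdhaf1 to Sdhaf4, were lower in IZ, from -0.91 ± 0.14 for Sdhaf2 to -1.56 ± 0.21 for Sdhaf3 on the log2 scale (edgeR, adjusted p at most 4.17e-06). Under scaling by total counts alone Sdhaf1 (-0.36, adjusted p = 0.0647) and Sdhaf2 (0.18, adjusted p = 0.288) did not pass, and Sdhaf2 turned upward. Lias, the lipoic acid synthase whose product is the cofactor of E2 in the dehydrogenase complexes, fell by 1.36 ± 0.12 from 82.8 ± 11.7 to 32.4 ± 6.63 CPM. Acss1, which makes acetyl-CoA from acetate in mitochondria, fell by 3.40 ± 0.27 from 219 ± 31.4 to 21.0 ± 15.3 CPM. Sirt3, the mitochondrial deacetylase, fell by 2.06 ± 0.22. Psmd13 and Ric8a overlap Sirt3 on the opposite strand, with a mean of up to 209 counts a library against 60.8. Cpsf7 overlaps Sdhaf2 in the same way, with 67.3 against 97.9, so reads from the other strand could enter both values.

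Aco1, Slc25a10, Gpd2 and Glud1 were among the 5 genes that did not pass the threshold. Under scaling by total counts alone these 4 were higher in IZ, by 1.10 (Gpd2) to 1.14 (Glud1) on the log2 scale, near the median shift of all genes of 1.14. Aco1, a cytosolic enzyme that also binds RNA when iron is scarce, had 26.7 ± 2.30 CPM in sham and 27.5 ± 4.15 CPM in IZ, and Glud1, glutamate dehydrogenase, 98.6 ± 20.7 and 102 ± 14.6 CPM. In the glycerol phosphate shuttle, cytosolic Gpd1 fell by 2.36 ± 0.23, and mitochondrial Gpd2 had 11.5 ± 2.99 CPM in sham and 11.9 ± 1.99 CPM in IZ. The difference between the changes of Gpd1 and Gpd2 was not tested.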
